A study of Mus musculus with 2 samples.

Results

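Eicosanoids are signalling lipids made from arachidonic acid, and 10 genes of their synthesis and sensing were described here across the leukocytes of mite-treated mouse skin. The genes are Pla2g5, Ptgs1, Ptgs2, Hpgds, Alox5, Alox5ap, Ltc4s, Ptger4, Ptgdr2 and Ltb4r1. They were selected by symbol, with earlier results of these data known. Each matched 1 entry of the 27998 genes listed in both libraries, and all 10 were detected. The first group was 1 library of IL31RAKO mice, which lack the receptor chain for the itch-associated cytokine IL-31, and the second was 1 library of WT mice. Both were of C57Bl/6 strain, and each library pooled dorsal neck skin of 4 mice. In both groups Biostir ointment, which holds Dermatophagoides farinae house dust mite, had been applied to the shaved back over 3 weeks, at 2 applications weekly, and each application followed a 2% SDS treatment by 2 hours. Live CD45+ cells were sorted and 30000 of them loaded per library, so cells without CD45 were meant to be left out. No untreated skin was measured. Neither the age nor the sex of the mice was given in the sources used here.

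Each group was a single pool, so no test between genotypes was possible and no p-value is given. Levels are UMI counts (unique molecular identifiers, 1 per captured RNA molecule) summed over a class of cells and scaled to the same total for every class and library (CPM). Ratios are IL31RAKO over WT. Their 95% intervals are exact and cover counting error only, neither the spread between mice nor that between cells. A difference is described as past the fold where the ratio was above 1.5 or below its inverse for a gene with 50 or more UMIs in the class.

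The libraries held 71333292 (IL31RAKO) and 57000499 (WT) UMIs, and 14619 and 11934 cells were kept, with medians of 3181 and 2918.5 UMIs per cell. Of these, 247 barcodes were kept in both libraries, 1.69% of IL31RAKO and 2.07% of WT cells. Il31ra, the targeted gene, had 26 UMIs in IL31RAKO and 11 in WT cells. The labels do not say which part of the gene is deleted and the counts are 3′ tags, so these counts do not check the genotype labels. Cells were sorted into classes by marker genes that exclude the 10 genes, and 12 classes had the 100 cells per library needed for a comparison. Cells passing no gate made up 24.6% of each library. Some cells passed the keratinocyte (42 in IL31RAKO, 87 in WT), fibroblast (55 and 52) or endothelial (32 and 69) gate, too few to be compared.

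Phospholipases free arachidonic acid from membranes. Cyclooxygenases, encoded by Ptgs1 and Ptgs2, turn it into prostaglandin H2, from which hematopoietic prostaglandin D synthase, the product of Hpgds, makes prostaglandin D2. In the other branch 5-lipoxygenase (Alox5), helped by its activating protein (Alox5ap), makes leukotriene A4, which leukotriene C4 synthase (Ltc4s) joins to glutathione. Among the receptors, Ptger4 binds prostaglandin E2, Ptgdr2 binds prostaglandin D2 and Ltb4r1 binds leukotriene B4. Langerhans cells are dendritic cells of the epidermis that carry langerin.

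Langerhans-like cells were the leading class for 5 of the 10 genes: Pla2g5, Ptgs1, Hpgds, Ltc4s and Alox5. Neutrophil-like cells led for Ptgs2, Alox5ap and Ltb4r1, CD4 T-like cells for Ptger4, and dermal-type gamma-delta T-like cells for Ptgdr2. Ptgs1, Hpgds and Ltc4s also stood among the 10 leading genes of the Langerhans-like class in both libraries, although no member had been used to define it. To show what lies upstream of these genes, the promoters of 4 Langerhans-led enzymes are printed, from 250 bases before to 50 bases after the start, from RefSeq on GRCm38.p6 (mm10). Of the 10 genes, 9 had an entry.

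Ptgs1, chr2:36230176-36230475, plus strand: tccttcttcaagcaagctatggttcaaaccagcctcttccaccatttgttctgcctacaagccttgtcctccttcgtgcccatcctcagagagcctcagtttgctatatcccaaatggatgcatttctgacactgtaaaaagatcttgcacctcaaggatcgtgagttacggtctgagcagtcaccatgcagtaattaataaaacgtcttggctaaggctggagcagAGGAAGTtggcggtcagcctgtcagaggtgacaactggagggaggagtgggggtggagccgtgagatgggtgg
Hpgds, chr6:65144681-65144980, minus strand: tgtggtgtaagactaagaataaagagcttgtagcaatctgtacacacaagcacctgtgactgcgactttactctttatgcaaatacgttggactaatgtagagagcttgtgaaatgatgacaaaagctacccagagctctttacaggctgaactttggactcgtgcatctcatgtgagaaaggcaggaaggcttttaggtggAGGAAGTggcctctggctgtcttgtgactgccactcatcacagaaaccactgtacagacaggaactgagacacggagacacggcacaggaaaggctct
Ltc4s, chr11:50238483-50238782, minus strand: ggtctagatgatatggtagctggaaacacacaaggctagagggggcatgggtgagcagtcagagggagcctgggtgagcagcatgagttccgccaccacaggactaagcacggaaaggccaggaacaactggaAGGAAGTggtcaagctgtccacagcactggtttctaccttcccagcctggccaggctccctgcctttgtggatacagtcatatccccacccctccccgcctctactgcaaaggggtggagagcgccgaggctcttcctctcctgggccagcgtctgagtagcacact
Alox5, chr6:116461129-116461428, minus strand: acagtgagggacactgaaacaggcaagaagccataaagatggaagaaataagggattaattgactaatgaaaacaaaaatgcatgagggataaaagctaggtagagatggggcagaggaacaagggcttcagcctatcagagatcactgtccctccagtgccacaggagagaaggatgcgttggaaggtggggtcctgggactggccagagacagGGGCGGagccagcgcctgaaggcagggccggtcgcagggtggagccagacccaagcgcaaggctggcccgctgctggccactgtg

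Capitals mark AGGAAGT, a sequence of the kind bound by ETS factors, or, in Alox5, GGGCGG, the core of an SP1-type GC box. Both strands were searched, and the motifs were chosen after the sequences were read. AGGAAGT begins 23 bases before the start in Ptgs1, 48 in Hpgds and 117 in Ltc4s. It occurs in 9.35% of the 32851 RefSeq promoters of this length and in 4 of the 9 genes with an entry, the other being Ltb4r1. GGGCGG is common, in 35.7% of promoters. A match describes letters in this window and not binding.

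The 2 promoters of Pla2g5 and that of Ptgs2 are shown because these genes differed most between genotypes within a class or in opposite directions between classes.

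Pla2g5, chr4:138863420-138863719, minus strand: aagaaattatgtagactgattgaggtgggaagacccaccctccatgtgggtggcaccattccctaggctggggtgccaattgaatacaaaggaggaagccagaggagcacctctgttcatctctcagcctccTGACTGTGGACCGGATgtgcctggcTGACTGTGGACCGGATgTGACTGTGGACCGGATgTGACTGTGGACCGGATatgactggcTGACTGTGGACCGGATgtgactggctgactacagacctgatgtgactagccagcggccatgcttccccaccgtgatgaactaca
Pla2g5 second entry, chr4:138819208-138819507, minus strand: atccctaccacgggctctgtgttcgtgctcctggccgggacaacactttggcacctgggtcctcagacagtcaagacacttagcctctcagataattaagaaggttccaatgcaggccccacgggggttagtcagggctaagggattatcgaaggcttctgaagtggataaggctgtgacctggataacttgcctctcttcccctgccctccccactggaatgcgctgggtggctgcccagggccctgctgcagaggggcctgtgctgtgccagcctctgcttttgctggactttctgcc
Ptgs2, chr1:150099781-150100080, plus strand: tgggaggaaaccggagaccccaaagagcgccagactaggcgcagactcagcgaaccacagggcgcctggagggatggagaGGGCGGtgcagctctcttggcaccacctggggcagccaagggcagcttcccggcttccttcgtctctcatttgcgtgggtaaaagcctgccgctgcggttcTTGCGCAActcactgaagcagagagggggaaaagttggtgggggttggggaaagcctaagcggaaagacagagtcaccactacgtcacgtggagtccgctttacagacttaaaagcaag

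In the first Pla2g5 window, capitals mark TGACTGTGGACCGGAT, a 16-base unit present in 5 copies between 118 and 34 bases before the start. No other promoter of the 32851 held it. The repeat is absent from the second Pla2g5 window. In Ptgs2, capitals mark GGGCGG at 170 bases and TTGCGCAA at 69 bases before the start. TTGCGCAA, a palindrome of the kind bound by C/EBP factors, occurs in 60 promoters, 0.183% of all. Which start was used in these cells was not measured.

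The Langerhans-like class held 147 IL31RAKO cells (1.01% of the library) and 272 WT cells (2.28%), with medians of 11564 and 9912.5 UMIs. Its markers were present in both. Cd207, which encodes langerin, stood at 1826 CPM in IL31RAKO and 1451 CPM in WT, and Epcam at 1214 and 1409 CPM. Mfge8, the marker with the most UMIs, stood at 6248 CPM in IL31RAKO and 3556 CPM in WT. A further 91 IL31RAKO and 73 WT cells passed the Langerhans gate together with another gate and were left out.

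**Figure D1:**
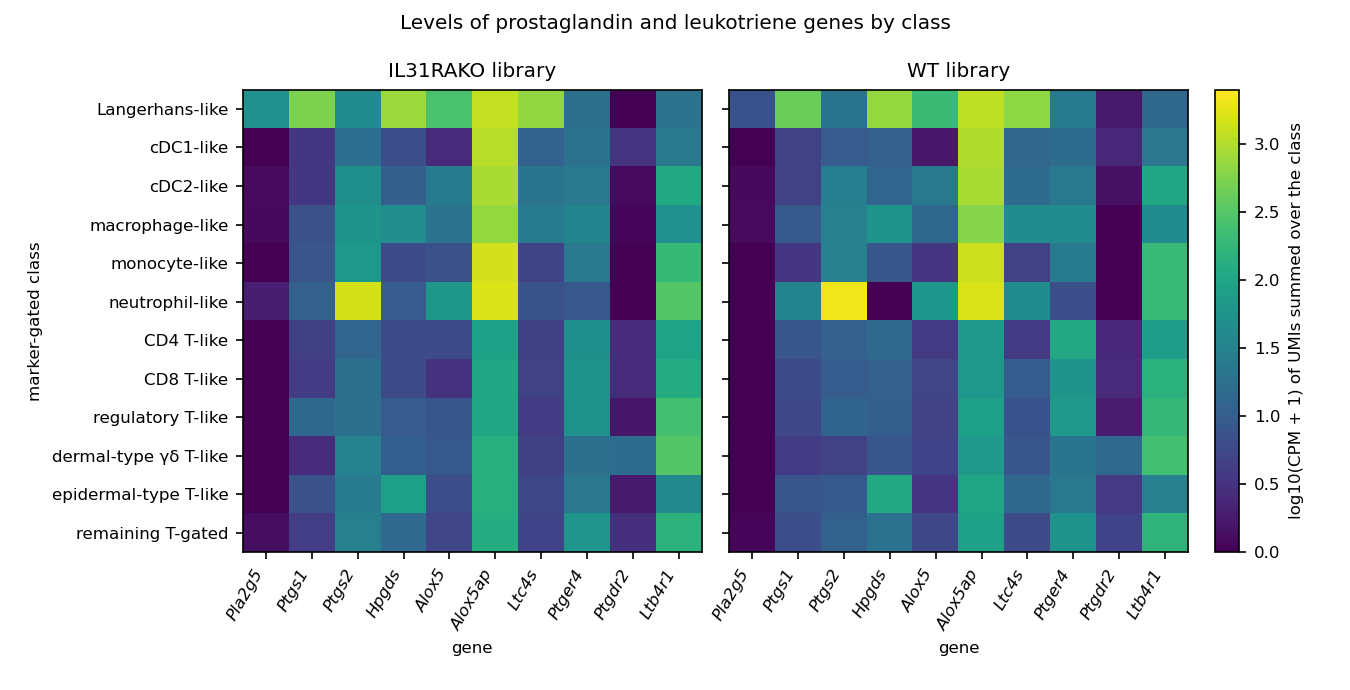
Heat map of the level of each of the 10 genes (columns) in the 12 compared classes (down the page), coloured by log10(CPM + 1), with the IL31RAKO library left and the WT library right. Ptgs1, Hpgds, Ltc4s, Alox5 and Pla2g5 are highest in Langerhans-like cells in both libraries, and Ptgs2 in neutrophil-like cells.

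The clearest difference between genotypes in Langerhans-like cells was that of Pla2g5, which encodes group V secreted phospholipase A2 (ENSMUSG00000041193, mm10 chr4:138799244-138863482, minus strand). Pla2g5 had 90 UMIs in 43 of 147 IL31RAKO cells, against 17 UMIs in 12 of 272 WT cells. Its level was 51.8 CPM in IL31RAKO and 6.26 CPM in WT, a ratio of 8.26 (4.89 to 14.8). Of the 6493 genes with 50 or more UMIs in this class, 5 had a higher ratio. The share of Langerhans-like cells with a Pla2g5 UMI was 29.3% in IL31RAKO and 4.41% in WT.

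Pla2g5 was spread over cells in the IL31RAKO library. The highest cell held 9 UMIs and the 5 highest held 27 of 90, while in WT the highest held 2 and the 5 highest held 10 of 17. With every cell thinned to 1000 UMIs, the shares were 5.48% in IL31RAKO and 0.738% in WT. Cells with a Pla2g5 UMI were about as deep as the rest, with a median of 11555 UMIs against 11630 in IL31RAKO and 9306.5 against 9935 in WT. CD8 T-like cells, which should lack the gene, had 0 UMIs in 1126 IL31RAKO and 1086 WT cells, at medians of 3417.5 and 3163.5 UMIs. The floor for a share there, set at 3 counts over the cells and not an exact limit, was 0.266% and 0.276%. Langerhans-like cells held 71.4% of the gene's UMIs in the IL31RAKO library and 45.9% in the WT library.

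**Figure D2:**
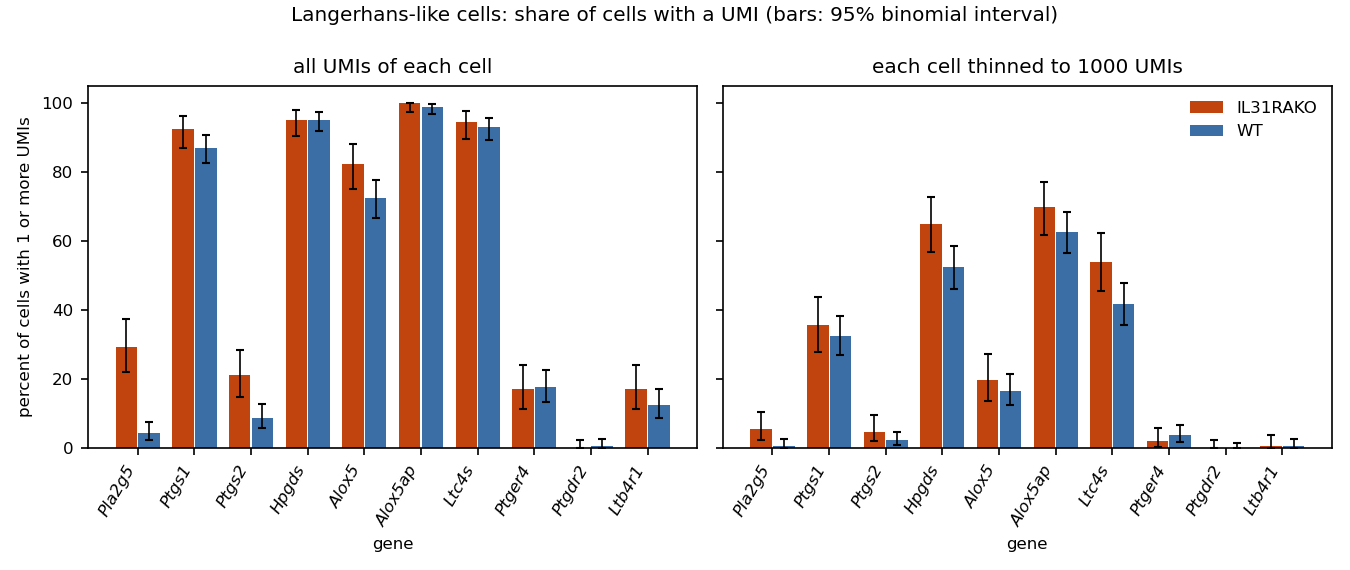
Percent of Langerhans-like cells with at least 1 UMI of each gene, with exact binomial 95% intervals, IL31RAKO left of WT, at each cell's own depth (left panel) and thinned to 1000 UMIs (right panel). At own depth Pla2g5 stands at 29.3% in IL31RAKO and 4.41% in WT, while Hpgds is near its ceiling at 95.2% in both. Thinned, Hpgds stands at 65.1% in IL31RAKO and 52.4% in WT.

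Ptgs1, the constitutive cyclooxygenase (ENSMUSG00000047250, mm10 chr2:36230426-36252272, plus strand), was concentrated in Langerhans-like cells in both genotypes, which held 62.5% of its UMIs in IL31RAKO and 69.5% in WT. It had 937 UMIs and 539 CPM in IL31RAKO, against 1164 UMIs and 429 CPM in WT, a ratio of 1.26 (1.15 to 1.37). Pooled over both libraries, its CPM was 34.9 times that of the next compared class, the neutrophil-like cells. The gene was detected in 92.5% of IL31RAKO and 87.1% of WT Langerhans-like cells, but in 1.24% and 1.66% of CD8 T-like cells. The genotype difference in Langerhans-like cells was inside the 1.5-fold limit as reported, and past it, at 1.54, with free RNA subtracted.

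Hpgds (ENSMUSG00000029919, mm10 chr6:65117293-65144908, minus strand) was close in level between the genotypes in Langerhans-like cells. Its level was 771 CPM (1341 UMIs) in IL31RAKO and 732 CPM (1988 UMIs) in WT, a ratio of 1.05 (0.982 to 1.13). This counting interval includes 1. With Leiden clusters the ratio was 1.11 (1.04 to 1.18). With cells passing another gate counted in it was 0.912 (0.855 to 0.974). Both of those intervals exclude 1, in opposite directions. Epidermal-type gamma-delta T-like cells formed a second, lower site of Hpgds. There the level was 83.9 CPM in IL31RAKO and 111 CPM in WT, a ratio of 0.753 (0.597 to 0.945). Hpgds UMIs were found in 16.9% of IL31RAKO and 23.6% of WT cells of that class, against 1.95% and 3.31% of CD8 T-like cells. The class had medians of 2382 and 2435 UMIs, shallower than the CD8 T-like cells. No T cell receptor gene was on the gene list used, so this class rests on Cd7, Nkg7, Klrk1 and Xcl1 beside Cd3 genes.

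In the leukotriene branch, Alox5 (ENSMUSG00000025701, mm10 chr6:116410077-116461178, minus strand), like Ptgs1, was somewhat higher in IL31RAKO than in WT Langerhans-like cells. Its level in Langerhans-like cells was 266 CPM (463 UMIs) in IL31RAKO and 204 CPM (555 UMIs) in WT, a ratio of 1.30 (1.15 to 1.48). It was detected in 82.3% of IL31RAKO and 72.4% of WT cells. With free RNA subtracted the ratio was 1.55, past the fold. With cells passing another gate counted in it was 1.08 (0.960 to 1.22), an interval that includes 1. Neutrophil-like cells, next in order among compared classes, stood at 61.2 CPM (66 UMIs) in IL31RAKO and 61.1 CPM (11 UMIs) in WT, a ratio of 1.00 (0.525 to 2.10). In macrophage-like cells Alox5 stood at 18.5 CPM in IL31RAKO and 13.0 CPM in WT, both near or below the level of free RNA of 31.6 and 12.7 CPM.

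Ltc4s (ENSMUSG00000020377, mm10 chr11:50236461-50238616, minus strand) differed little between the genotypes in Langerhans-like cells, with 702 CPM (1221 UMIs) in IL31RAKO and 660 CPM (1793 UMIs) in WT, a ratio of 1.06 (0.988 to 1.14). Outside that class it was lower in IL31RAKO macrophage-like cells. The level there was 24.4 CPM in IL31RAKO and 42.4 CPM in WT, a ratio of 0.575 (0.470 to 0.705). This held in the cells with none of the resident-type markers Cd163, Folr2 and Cbr2, at 28.4 CPM (144 UMIs in 1471 cells) in IL31RAKO and 52.5 CPM (158 UMIs in 961 cells) in WT. Cells with 1 of these markers had 49 UMIs in 766 cells in IL31RAKO and 10 UMIs in 259 cells in WT, a higher CPM in IL31RAKO with overlapping counting intervals. Cells with 2 or 3 of them were at 22.9 CPM (43 UMIs in 471 cells) in IL31RAKO and 4.40 CPM (1 UMI in 76 cells) in WT, also with overlapping intervals. The subsets were unequal in size between the libraries. Langerhans markers moved the same way in macrophage-like cells, at 0.0169% of their UMIs in IL31RAKO and 0.0259% in WT with 0 of 5 markers at 0, and their part in the Ltc4s difference was not tested. The level of Ltc4s in free RNA was 63.2 CPM in IL31RAKO and 25.5 CPM in WT.

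The enzymes were often found in the same Langerhans-like cells. UMIs of all 5 of Ptgs1, Hpgds, Alox5, Alox5ap and Ltc4s were found in 116 of 147 IL31RAKO cells (78.9%, exact interval 71.4 to 85.2) and in 180 of 272 WT cells (66.2%, 60.2 to 71.8). The IL31RAKO cells were also deeper, as given above. Ptgs1 and Hpgds together were seen in 0.517% of IL31RAKO and 0.617% of WT macrophage-like cells. They were seen together in 0 of 1126 IL31RAKO and 0 of 1086 WT CD8 T-like cells.

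Over the Langerhans-like class, 9 of the 10 genes had 50 or more UMIs, and 3 of them were past the fold upward in IL31RAKO: Pla2g5, Ptgs2 and Ltb4r1. The background was 5.58% of 6493 genes. No member was past the fold downward, against 4.14% of all genes. The median log2 ratio of the 9 was 0.33, against 0.02 for all genes measured in the class. Ltb4r1 was low here, at 19.0 CPM in IL31RAKO and 12.5 CPM in WT, a ratio of 1.52 (0.910 to 2.52) whose interval includes 1, and below its free-RNA level in both. Markers of neutrophils made up 0.0415% of the class's UMIs in IL31RAKO and 0.0131% in WT, and those of keratinocytes 0.0293% and 0.0107%, with none of the 6 markers of either list at 0. The estimated share of free RNA in this class was 30.6% in IL31RAKO and 14.9% in WT. The part of these in the ratios of Ptgs2 and Ltb4r1 was not tested. Pla2g5 had 0 UMIs in the free-RNA barcodes of both libraries.

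**Figure D3:**
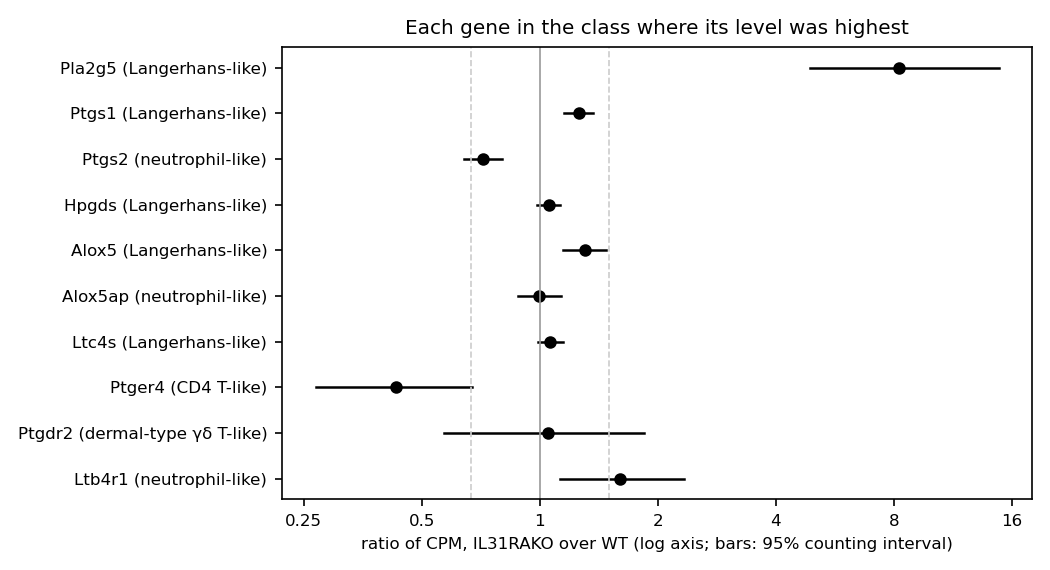
Ratio of IL31RAKO over WT for each gene in its leading class, on a log axis, with exact 95% counting intervals and lines at 1 and at the 1.5-fold limits. Pla2g5 lies at 8.26, Ltb4r1 at 1.60 and Ptger4 at 0.431, and the other 7 lie inside the limits.

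Alox5ap (ENSMUSG00000060063, mm10 chr5:149264767-149288153, plus strand) was high in all the compared myeloid classes. In neutrophil-like cells it stood at 1627 CPM in IL31RAKO and 1632 CPM in WT, a ratio of 0.997 (0.881 to 1.13). Monocyte-like cells followed with 1487 and 1396 CPM, Langerhans-like cells with 1229 and 1177 CPM, and type 1 and type 2 conventional dendritic (cDC1-like and cDC2-like) cells with 1076 and 975 CPM and 940 and 915 CPM, IL31RAKO first in each pair. The counting intervals of the neutrophil-like and monocyte-like levels overlapped in WT and not in IL31RAKO. Macrophage-like cells were lower, at 729 CPM in IL31RAKO and 601 CPM in WT, a ratio of 1.21 (1.16 to 1.27). Basophil-like cells, with 116 IL31RAKO and 67 WT cells too few to enter the comparison, held 2052 and 1987 CPM. In T-like classes Alox5ap lay below its free-RNA level of 563 CPM in IL31RAKO and 620 CPM in WT.

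Ptgs2, the inducible cyclooxygenase (ENSMUSG00000032487, mm10 chr1:150100031-150108227, plus strand), was high in neutrophil-like and basophil-like cells and low in the rest of the compared classes. In neutrophil-like cells it had 1522 CPM (1642 UMIs in 791 cells) in IL31RAKO and 2127 CPM (383 UMIs in 151 cells) in WT, a ratio of 0.716 (0.640 to 0.802). It was detected in 71.0% of IL31RAKO and 75.5% of WT neutrophil-like cells, at medians of only 1263 and 1146 UMIs. In basophil-like cells it had 1102 CPM in IL31RAKO and 996 CPM in WT, a ratio of 1.11 (0.923 to 1.33). CD8 T-like cells showed the gene in 5.24% and 2.03% of cells.

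The other measured classes went the opposite way. Of the 9 classes in which Ptgs2 had 50 or more UMIs, 8 were past the fold upward in IL31RAKO. Cells of cDC2-like type held 47.7 CPM in IL31RAKO and 27.7 CPM in WT, and monocyte-like cells 64.0 and 28.9 CPM. Macrophage-like cells held 56.9 CPM in IL31RAKO and 29.3 CPM in WT, a ratio of 1.94 (1.59 to 2.39). Langerhans-like cells held 43.1 CPM in IL31RAKO and 19.2 CPM in WT. The widest gap was in dermal-type gamma-delta T-like cells, with 31.0 CPM (37 UMIs in 22 cells) in IL31RAKO and 3.59 CPM (14 UMIs in 12 cells) in WT, a ratio of 8.65 (4.57 to 17.3). Of those 37 UMIs, 20 lay in 5 cells.

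These low levels stood close to free RNA, where Ptgs2 had 31.6 CPM in IL31RAKO and 34.0 CPM in WT from 6 and 8 UMIs. In 7 of the 12 classes both libraries lay below it. Among these were CD8 T-like, cDC1-like, dermal-type gamma-delta T-like and remaining T-gated cells, all counted above as past the fold. Of the classes past the fold, the neutrophil marker share is given here only for the macrophage-like, dermal-type gamma-delta T-like and Langerhans-like ones. In these classes neutrophil marker UMIs made up a higher share in IL31RAKO. They made up 0.0576% of macrophage-like UMIs in IL31RAKO and 0.0142% in WT, and 0.0254% and 0.00666% of dermal-type gamma-delta T-like UMIs. Of the 6 neutrophil markers, 1 was at 0 in the dermal-type class of IL31RAKO and none in the other 3 sums. Neutrophil-like cells were 5.41% of the IL31RAKO library and 1.27% of the WT library. The part of neutrophil RNA in these ratios was not tested.

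**Figure D4:**
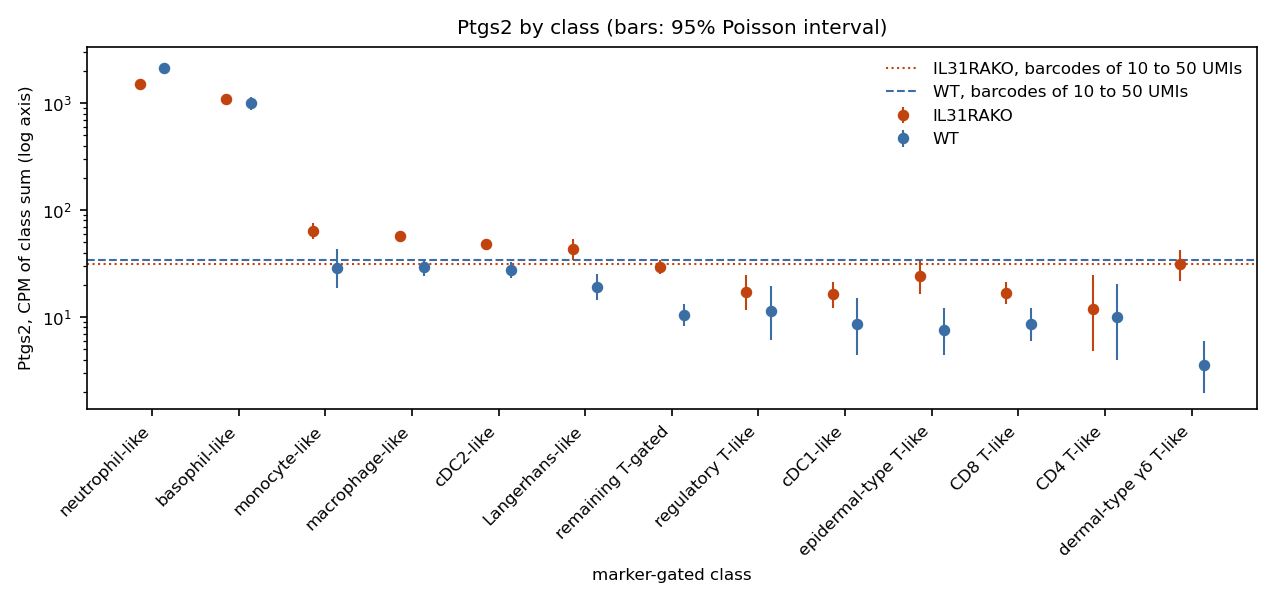
Ptgs2 level by class on a log-scaled CPM axis, IL31RAKO left of WT, with exact Poisson 95% intervals and the free-RNA level of each library. Neutrophil-like cells are at 1522 (IL31RAKO) and 2127 (WT) CPM and basophil-like cells at 1102 and 996 CPM, and the other classes shown are at or below 64.0 CPM. Cells passing no gate are not shown.

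Over all cells, Ptgs2 was 92.1 CPM in IL31RAKO and 41.3 CPM in WT, a ratio of 2.23. Per cell, the mean was 0.387 UMIs in IL31RAKO and 0.160 in WT, 2.42 times as high. With the IL31RAKO class shares and the WT level in each class, it would have been 1.76 times as high. In a whole library, more cells of a type and more RNA per cell cannot be told apart. Cells passing no gate held 30.7% of all Ptgs2 UMIs in IL31RAKO and 40.7% in WT, at 127 CPM (1736 UMIs) and 80.1 CPM (777 UMIs). These levels lay above those of every compared class but the neutrophil-like one. Over all cells 2 of the 10 genes were past the fold upward, Ptgs2 and Pla2g5 (background 5.37% of 13307 genes), and 3 downward, Hpgds, Ltc4s and Ptgdr2 (background 7.92%). Per cell these 3 were 0.705, 0.709 and 0.475 times as high in IL31RAKO. With the IL31RAKO class shares and the WT level in each class, the values would have been 0.724, 0.780 and 0.564. For Pla2g5 the value was 2.78, against 0.834 calculated in the same way.

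Among the receptors, Ltb4r1 (ENSMUSG00000046908, mm10 chr14:55765962-55768494, plus strand), the high-affinity leukotriene B4 receptor known for neutrophil chemotaxis, had 2 leading sites. In neutrophil-like cells it stood at 310 CPM (335 UMIs in 225 cells) in IL31RAKO and 194 CPM (35 UMIs in 30 cells) in WT, a ratio of 1.60 (1.13 to 2.33). It was the only one of 4 measured genes past the fold upward there, against a background of 9.72% of 2264 genes, and none was past it downward, against 9.10%. The ratio was inside the limit with stricter gates (1.43) and with Leiden clusters (1.38). In dermal-type gamma-delta T-like cells it stood at 313 CPM in IL31RAKO and 237 CPM in WT, a ratio of 1.32 (1.17 to 1.49), with 62.7% and 58.1% of cells positive. Within each library the dermal-type level was the same as or above the neutrophil-like one, and the neutrophil-like class leads only in the sum over both libraries, where IL31RAKO supplied 335 of its UMIs and WT 35.

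Regulatory T-like cells came next for Ltb4r1, with 240 CPM (403 UMIs) in IL31RAKO and 186 CPM (212 UMIs) in WT, a ratio of 1.29 (1.09 to 1.53). Monocyte-like cells held 189 CPM in IL31RAKO and 202 CPM in WT. In CD8 T-like cells the level was 124 CPM in IL31RAKO and 146 CPM in WT, a ratio of 0.847 (0.754 to 0.953). A small set of cells passing an ILC2 marker gate outside the T gate, 66 in IL31RAKO and 22 in WT, held 234 and 174 CPM.

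Ptger4, the EP4 receptor (ENSMUSG00000039942, mm10 chr15:5206661-5244187, minus strand), was widespread and low. Its leading class, CD4 T-like cells, showed 47.7 CPM (28 UMIs in 22 of 190 cells) in IL31RAKO and 111 CPM (78 UMIs in 52 of 231 cells) in WT, a ratio of 0.431 (0.269 to 0.671). Of the 3157 genes measured in the class, 10 had a lower ratio. Ptger4 was 1 of 3 members measured there and the only 1 past the fold downward, against a background of 5.16%, and 0 were past it upward (4.21%). The share of positive cells was 11.6% in IL31RAKO and 22.5% in WT at medians of 2713.5 and 2671 UMIs, and 6.67% and 8.84% after thinning to 1000 UMIs. Neutrophil-like cells, where the gene was lowest, showed it in 1.01% and 0.662% of cells.

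In the other T-like classes Ptger4 differed less. Regulatory T-like cells held 52.3 CPM in IL31RAKO and 69.1 CPM in WT, a ratio of 0.757 (0.552 to 1.04), and CD8 T-like cells 54.1 and 57.2 CPM, a ratio of 0.947 (0.787 to 1.14). The counting intervals of the CD4, CD8 and regulatory T-like levels overlapped in IL31RAKO, and the CD4 T-like level lay above the other two in WT. In IL31RAKO the remaining T-gated cells had the highest level of the compared classes, 57.6 CPM, so the CD4 T-like class leads through its WT level. The exons of Ptger4 overlap those of Ttc33 on the other strand, which had 1269 UMIs in IL31RAKO and 1058 in WT. Strand use in counting was not given in the sources used here, and whether any Ttc33 reads were counted as Ptger4 was not tested.

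Ptgdr2, also called CRTH2 (ENSMUSG00000034117, mm10 chr19:10937160-10942511, plus strand), was rare, with 64 UMIs in all IL31RAKO cells and 110 in all WT cells. Dermal-type gamma-delta T-like cells led with 14.3 CPM (17 UMIs in 17 of 295 cells) in IL31RAKO and 13.6 CPM (53 UMIs in 47 of 788 cells) in WT, a ratio of 1.05 (0.570 to 1.84). The interval spans values on both sides of the 1.5-fold limit. In the whole libraries the ratio of CPM was 0.438. This class was 295 of the IL31RAKO cells and 788 of the WT cells and held 26.6% and 48.2% of the gene's UMIs. Its exons overlap those of Ccdc86 on the other strand, with 1200 UMIs in IL31RAKO and 804 in WT. The dermal-type class also lacks T cell receptor genes and rests on at least 2 of Cd163l1, Blk, Il23r and 5830411N06Rik inside the T gate. Ratios of these markers in the class were 2.00 (1.84 to 2.18) for Cd163l1 and 1.52 (1.13 to 2.02) for Il23r. They were 0.695 (0.606 to 0.795) for 5830411N06Rik and 0.952 (0.863 to 1.05) for Blk. The part of this in the Ptgs2, Alox5ap, Ltb4r1 and Ptgdr2 ratios of the class was not tested.

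Counts of members past the fold in the remaining classes were as follows. In dermal-type gamma-delta T-like cells 2 of 5 measured genes were past it upward, Ptgs2 and Alox5ap, against a background of 5.90% of 7071 genes, and 0 downward (10.1%). In CD8 T-like cells 2 of 6 were higher, Ptgs2 and Alox5ap (background 3.15%), and 2 lower, Hpgds and Ltc4s (3.45%). All 4 of these CD8 T-like levels lay below free RNA in both libraries. In macrophage-like cells 1 of 8 was higher (4.22%) and 1 lower (2.96%), Ptgs2 and Ltc4s. Ptgs2 alone was past it upward in cDC1-like (4.61%), cDC2-like (2.51%) and monocyte-like cells (6.19%), where no member was past it downward (3.35%, 2.77% and 5.73% in the same order). In T-gated cells that passed no T subset gate, Ptgs2 was higher (3.46%) and Ptgs1 lower (3.30%). Ptgs2 in cDC1-like, dermal-type and remaining T-gated cells lay below free RNA in both libraries. So did Alox5ap in dermal-type cells and Ptgs1 in remaining T-gated cells. No member was past the fold in epidermal-type gamma-delta T-like cells (backgrounds 3.13% and 4.07%) or regulatory T-like cells (4.73% and 3.45%).

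**Figure D5:**
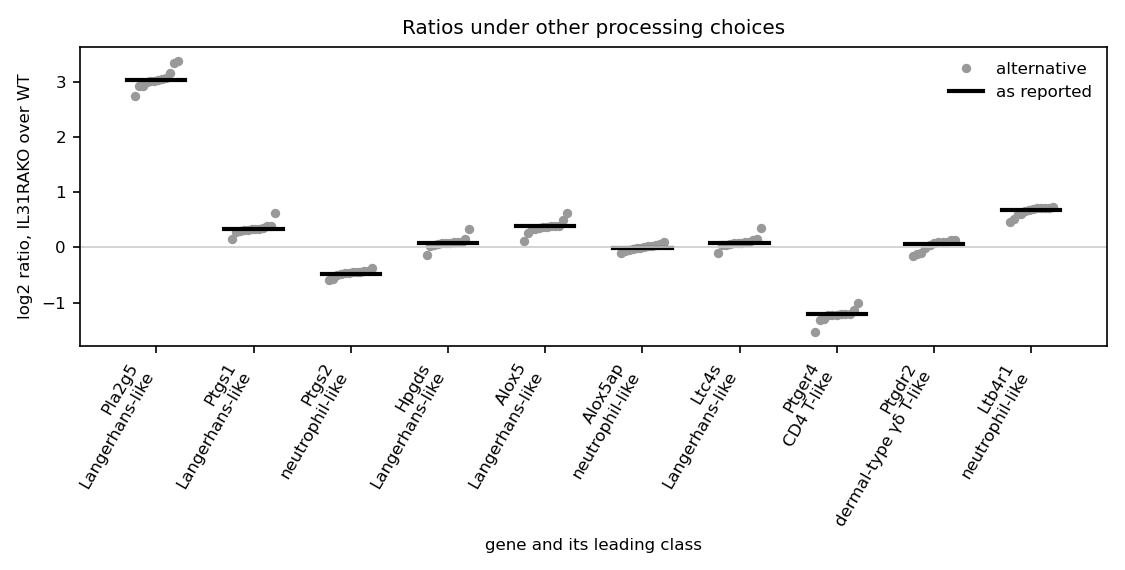
The log2 ratio of IL31RAKO over WT for each gene in its leading class, as reported and under each alternative processing. Pla2g5 stays between 2.75 and 3.39 on the log2 scale and Ptger4 reaches -1.54, while Hpgds, Ltc4s, Alox5ap and Ptgdr2 lie on both sides of 0.

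Another 50 genes of the same pathways were listed beside the 10. Those with 50 or more UMIs in at least 1 compared class, 26 in all, were described in their own leading class. Ggt5 had only 38 UMIs in IL31RAKO and 7 in WT in its leading class, the neutrophil-like cells. Of these 26, 3 were past the fold upward in IL31RAKO and 1 downward, and their median log2 ratio was 0.09. The share of all genes past the fold upward was 2.51%, 5.58% and 3.15% in the cDC2-like, Langerhans-like and CD8 T-like classes of the 3, and downward 4.07% in the epidermal-type class of the other. One of the 3, Alox12e, rests on 1 cell, without which it is no longer higher. The phospholipases Pla2g4a, the cytosolic enzyme, and Pla2g7, which breaks down platelet-activating factor, were inside the limits in their leading classes. Pla2g4a stood at 38.5 CPM in IL31RAKO and 32.8 CPM in WT Langerhans-like cells, a ratio of 1.18 (0.843 to 1.63). None of the 4 phospholipases described was past the fold in its leading class, their ratios running between 0.966 and 1.18. Elsewhere Pla2g7 was past it upward in CD8 T-like (2.01), cDC1-like (1.72), dermal-type (3.65), epidermal-type (2.12) and remaining T-gated cells (2.04). Pla2g12a was past it downward in dermal-type cells (0.643). In these classes both genes lay below their free-RNA levels in both libraries. The shares of all genes past the fold in these classes are given above.

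Among enzymes after the cyclooxygenases and lipoxygenases, Dpep2, a dipeptidase that turns leukotriene D4 into E4, was inside the limits. It stood at 316 CPM in IL31RAKO and 246 CPM in WT Langerhans-like cells, a ratio of 1.29 (1.15 to 1.44). Lta4h, which makes leukotriene B4, had 46.9 CPM in IL31RAKO and 68.7 CPM in WT epidermal-type gamma-delta T-like cells, a ratio of 0.683 (0.500 to 0.922). Cbr1, a carbonyl reductase of prostaglandins, was the 1 lower gene, at 37.1 CPM in IL31RAKO and 56.6 CPM in WT in that class, a ratio of 0.654 (0.461 to 0.916). Hpgd, which inactivates prostaglandins, had 62.4 CPM in IL31RAKO and 76.2 CPM in WT macrophage-like cells, a ratio of 0.819 (0.712 to 0.943).

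The 3 higher companions were Alox15, Alox12e and Ptger2. Alox15, a lipoxygenase of alternatively activated macrophages, had 15.1 CPM in IL31RAKO and 6.97 CPM in WT cDC2-like cells, a ratio of 2.17 (1.47 to 3.30). The level of Alox15 in free RNA was 10.5 CPM in IL31RAKO and 17.0 CPM in WT, so the WT level lay below it. Alox15 was far higher in basophil-like cells, which are too few to be compared, at 216 CPM in IL31RAKO and 184 CPM in WT, a ratio of 1.17 (0.766 to 1.83). Ptger2, the EP2 receptor, had 14.3 CPM in IL31RAKO and 8.90 CPM in WT CD8 T-like cells, a ratio of 1.61 (1.05 to 2.49). Alox12e, an epidermal lipoxygenase, had 47.7 CPM in IL31RAKO and 5.53 CPM in WT Langerhans-like cells, but 77 of its 83 IL31RAKO UMIs lay in 1 cell. That cell also held 323 of the 510 keratinocyte marker UMIs of the IL31RAKO class. With the highest cell of each library left out, Alox12e stood at 3.48 CPM in IL31RAKO and 4.81 CPM in WT. Keratinocyte-like cells, too few to be compared, held 555 CPM in IL31RAKO and 787 CPM in WT, a ratio of 0.705 (0.618 to 0.802).

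The genes whose levels ran most like those of a member across 18 classes in both libraries, 36 points in all that share libraries and free RNA, are given by Pearson's r on log2 CPM as a description. For Ptgs2 they were Irg1 (0.951), Cxcr2 (0.939) and Nlrp3 (0.935), and for Alox5ap the nearest was Btk (0.961). For Ptgs1 the nearest was Wsb2 (0.869), for Hpgds H2-M5 (0.882), for Ltc4s Lpar3 (0.850) and for Alox5 Dok3 (0.805). H2-M5 was also second for Ltc4s, at 0.845. The receptors had nearest genes at lower values for Ptger4, Kdm2b (0.740), and at 0.861 for Ltb4r1, Gmfg.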

How the data were processed

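The deposited values were raw UMI counts per gene and barcode, from the 10x Single Cell 3′ kit, version 2, per the labels' protocols. Cell Ranger 3.1, Seurat 3.2.2 and mm10 are named per the submitters' processing notes, with no role given. The deposited count matrices listed 737280 barcodes. Barcodes with 500 or more UMIs, 250 or more genes and under 10% mitochondrial UMIs were kept. Cells were gated on marker lists: a cell needed a set number of distinct markers and a list share of at least 20% of the 90th percentile among such cells, and cells passing several gates were left out in place of a doublet caller. Gate limits were set after seeing the data, and cell names may differ from the study's. Counts summed by class were scaled to CPM. Intervals were exact (Poisson, Clopper-Pearson, conditional binomial) and cover counting error only. Free RNA was read from barcodes of 10 to 50 UMIs.

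The genes described and the lists were chosen with earlier results of these data known. Each of the 10 genes was described in its leading class, the compared class with the highest CPM over both libraries. The same rule was used for those of the 50 related genes with 50 or more UMIs in at least 1 compared class. The 3 genes nearest to each member were those with the highest Pearson's r on log2(CPM + 10). With 1 library per group no test was run. Python 3.11.15, numpy 2.4.6, scipy 1.17.1, pandas 2.3.3 and, for alternatives, scanpy 1.11.5 were used. The interval calculations were checked on simulated data. Alternatives covered scaling, cell filters, Scrublet, stricter gates, Leiden clusters, free-RNA subtraction, thinning and the cell with most UMIs. Positions are from GENCODE vM21.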

Additional observations from a re-analysis of the deposited data

Results flagged for a closer look

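Several genes had ratios of IL31RAKO over WT on both sides of 1 in different classes, each with a counting interval that excludes 1. The difference between classes was not tested. The Ptgs2 ratio was 0.716 in neutrophil-like cells, while it was 1.95 in CD8 T-like, 2.25 in Langerhans-like, 1.91 in cDC1-like, 1.72 in cDC2-like, 1.94 in macrophage-like, 2.21 in monocyte-like, 2.82 in remaining T-gated and 8.65 in dermal-type gamma-delta T-like cells. Of these, the CD8 T-like, cDC1-like, remaining T-gated and dermal-type levels lay below free RNA in both libraries. The Ltc4s ratio was 1.34 in cDC2-like cells, at 19.2 CPM in IL31RAKO and 14.4 CPM in WT, both below free RNA. It was 0.414 in CD8 T-like and 0.575 in macrophage-like cells. The Ltb4r1 ratio was 0.847 in CD8 T-like cells, while it was 1.16 in cDC2-like, 1.32 in dermal-type gamma-delta T-like, 1.21 in macrophage-like, 1.29 in regulatory T-like and 1.60 in neutrophil-like cells.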

How the results depend on the processing

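Of 132 values under alternatives, 116 stayed close to those reported, 16 moved and 0 were counted as a change of direction. A ratio was called close where it lay inside the reported interval. A change of direction was counted only where that interval excluded 1, or where the intervals of the shares did not overlap. The ratios of Hpgds, Ltc4s, Alox5ap and Ptgdr2, whose intervals included 1, could not be counted so. That of Ptgdr2 ran between 0.894 and 1.10. With free RNA subtracted, the log2 ratio in Langerhans-like cells was 0.62 for Ptgs1, 0.34 for Hpgds, 0.35 for Ltc4s and 0.63 for Alox5, which puts Ptgs1 and Alox5 past the 1.5-fold limit. With cells passing another gate counted in, an alternative chosen after seeing the data, it was 0.15, -0.13, -0.10 and 0.11 for the same genes, so Hpgds and Ltc4s fall on the other side of 0. After thinning, the difference in the share of positive cells, IL31RAKO minus WT, was 12.7 percentage points for Hpgds, 12.4 for Ltc4s, 3.26 for Alox5, 4.74 for Pla2g5 and -2.17 for Ptger4. With 20 or more UMIs required in place of 50, more genes were counted. In Langerhans-like cells 2 of 20 related genes were past the fold downward (0 of 16 as reported). Over 12 classes, of 218 pairs of gene and class (149), 29 were past it upward (16) and 17 downward (3). The share of all genes at 20 UMIs was not calculated, so these counts have no background. At 50 UMIs it ran between 2.51% and 9.72% upward and between 2.77% and 10.1% downward in the compared classes. The cause of the other shifts was not tested. The ratio ran between 6.71 and 10.5 for Pla2g5, 0.345 and 0.500 for Ptger4, and 0.664 and 0.772 for Ptgs2. The Ltb4r1 call ended with stricter gates (1.43, 0.964 to 2.19) and with Leiden clusters (1.38, 1.11 to 1.73). No paired analysis was possible because each group had 1 library. Depth limited Ptgdr2 and the small classes.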

Other observations

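Fpr2, a formyl peptide receptor, and Alox15 were higher in IL31RAKO macrophage-like cells. Fpr2 stood at 13.1 CPM in IL31RAKO and 3.01 CPM in WT, a ratio of 4.36 (2.41 to 8.66), and at 4.64 with the highest cell of each library left out. Neutrophil markers made up 0.0576% of the UMIs of this class in IL31RAKO and 0.0142% in WT, and their part in the Fpr2 difference was not tested. Alox15 stood at 5.89 CPM (57 UMIs in 2708 cells) in IL31RAKO and 0.251 CPM (1 UMI in 1296 cells) in WT macrophage-like cells. Both lay below its free-RNA level of 10.5 CPM in IL31RAKO and 17.0 CPM in WT. In the 14 IL31RAKO and 14 WT cells that passed both the Langerhans and the mature dendritic cell gates, Ltc4s stood at 241 and 146 CPM and Hpgds at 135 and 68.5 CPM.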
